A study of Mus musculus with 7 samples.

Results

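Neutrophils fill their granules in a fixed order while they mature, and the mRNAs of 10 proteins made at successive steps of that order were followed here in RNA-Seq data from mouse knee cartilage. The members were chosen by gene name. Elane, Mpo, Prtn3, and Ctsg encode proteins of the primary granules, and Ltf, Camp, Ngp, Lcn2, S100a8, and S100a9 are made at the secondary granule stage or later. Each name matched 1 row, so the members are 10 of the 55401 genes in the count table, and all 10 passed the filter of more than 1 CPM (counts scaled to library size, here by TMM normalization) in at least 2 samples that left 16429 genes for testing. The study compared WT and Trpc1-/- mice, the latter a constitutive knockout of a calcium channel subunit, after DMM, in which surgery on the medial meniscus makes the knee unstable and induces osteoarthritis. All mice were male C57BL/6J, had surgery on the right knee at 10 weeks of age, and were killed 2 weeks later, so the genotype is the only planned difference and no unoperated sample was analysed here. By the labels, which were followed, 4 samples were WT and 3 were Trpc1-/-; the study's Methods state the reverse, 3 and 4. Each sample pooled tissue from 2 to 3 mice, and by the Methods it held subchondral bone as well as cartilage.

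The order of granule formation is well known from bone marrow. Promyelocytes make the primary (azurophilic) granules, which hold myeloperoxidase and the serine proteases, then myelocytes switch to the secondary (specific) granules with lactoferrin and the antimicrobial peptides, and the cytosolic S100 proteins build up until the cell is mature. The granule mRNAs fall again once their stage is over, so in bulk tissue their balance depends on the stages present. In bulk samples, fewer cells of a type and less RNA per cell cannot be told apart.

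The positions of the members are those of GENCODE M21 on GRCm38, and each value covers all exons of a gene. Elane (ENSMUSG00000020125, chr10:79886247-79888215) and Prtn3 (ENSMUSG00000057729, chr10:79874476-79883174) are neighbors, 3.07 kb apart on the plus strand, whereas Mpo (ENSMUSG00000009350, chr11:87793581-87804413, plus strand) and Ctsg (ENSMUSG00000040314, chr14:56099881-56102574, minus strand) stand alone. Camp (ENSMUSG00000038357, chr9:109847379-109849617, minus strand), Ngp (ENSMUSG00000032484, chr9:110419747-110423012, plus strand), and Ltf (ENSMUSG00000032496, chr9:111019271-111042767, plus strand) share a stretch of chromosome 9, with gaps of 570 kb and 596 kb. These 3 genes are on the same chromosome as the targeted gene Trpc1, between 14.1 and 15.3 Mb from it. S100a8 (ENSMUSG00000056054, chr3:90668978-90670035, plus strand) and S100a9 (ENSMUSG00000056071, chr3:90692632-90695721, minus strand) lie 22.6 kb apart, and Lcn2 (ENSMUSG00000026822, chr2:32384633-32388252, minus strand) is the remaining member.

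The promoters of the members were searched for short motifs of factors known from granulocytes. The search covered 250 bases upstream of the RefSeq start of each gene on both strands, in RefSeq's table for GRCm38 with 32851 promoters, in which all 10 members were found. The RefSeq start can differ from the GENCODE start given above. The windows of Prtn3 and Lcn2 lay wholly within the GENCODE gene positions, and those of Mpo and Camp mostly did. The core GAGGAA, a form of the site of the myeloid factor PU.1, was present in 4 of 4 primary promoters and in 3 of 6 later ones (Ltf, Lcn2, and S100a8), against 23.3% of all promoters. The letters TTNNGNAA, a form of the site of the C/EBP family that drives granulocyte differentiation, were present in 0 of 4 primary promoters and in 5 of 6 later ones (all but Camp), against 36.8% of all promoters. No base belonged to matches of both of these motifs in the promoters shown. The other 3 of the 5 motifs searched were CCAAT (1 of 4 primary, 2 of 6 later, and 33.8% of all promoters), TATAAA (1 of 4, 1 of 6, and 12.4%), and CNGTTA, a core of the MYB site (2 of 4, 0 of 6, and 19.8%). These are matches of letters in a short window and do not say which factor binds there.

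A pair of primary promoters and 3 later ones are printed to show this contrast, 5′ to 3′ on the strand of the gene, up to the last base before its annotated start, with matches to GAGGAA and TTNNGNAA on either strand in capitals. The searched window can run past the printed stretch. Of the later promoters not printed, those of Lcn2 and S100a8 matched both motifs and that of Camp matched neither, so the printed ones show the contrast more clearly than the full set. They lie at chr10:79886062-79886246 (Elane, plus strand), chr14:56102575-56102824 (Ctsg, minus strand), chr9:111019042-111019270 (Ltf, plus strand), chr9:110419558-110419746 (Ngp, plus strand), and chr3:90695722-90695971 (S100a9, minus strand).
Elane: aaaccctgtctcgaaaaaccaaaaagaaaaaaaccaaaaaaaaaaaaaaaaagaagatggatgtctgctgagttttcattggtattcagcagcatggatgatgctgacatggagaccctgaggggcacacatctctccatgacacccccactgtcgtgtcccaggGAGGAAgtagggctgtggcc
Ctsg: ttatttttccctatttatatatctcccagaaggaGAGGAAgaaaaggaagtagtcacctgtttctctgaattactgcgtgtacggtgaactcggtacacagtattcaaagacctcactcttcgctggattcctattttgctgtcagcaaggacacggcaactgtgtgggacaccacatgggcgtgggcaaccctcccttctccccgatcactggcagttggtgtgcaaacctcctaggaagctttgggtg
Ltf: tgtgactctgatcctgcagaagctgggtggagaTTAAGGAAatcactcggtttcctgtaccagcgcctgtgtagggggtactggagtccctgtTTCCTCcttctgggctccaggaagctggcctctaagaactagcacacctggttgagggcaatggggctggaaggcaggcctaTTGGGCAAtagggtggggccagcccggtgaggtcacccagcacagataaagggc
Ngp: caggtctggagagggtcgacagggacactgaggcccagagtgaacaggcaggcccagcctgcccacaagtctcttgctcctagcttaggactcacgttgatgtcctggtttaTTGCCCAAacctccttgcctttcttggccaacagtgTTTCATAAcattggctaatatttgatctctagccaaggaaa
S100a9: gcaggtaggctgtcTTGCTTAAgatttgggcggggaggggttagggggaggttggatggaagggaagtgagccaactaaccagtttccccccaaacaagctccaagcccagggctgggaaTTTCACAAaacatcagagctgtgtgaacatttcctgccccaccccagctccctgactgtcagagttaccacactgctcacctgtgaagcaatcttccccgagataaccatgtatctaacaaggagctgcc
In these 5 stretches the capitals are GAGGAA alone in Elane and Ctsg, TTNNGNAA alone in Ngp and S100a9, and both in Ltf.

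The samples held between 52142451 and 118254070 estimated counts on genes. WT replicate 1 had the lowest total and the largest share of counts on the mitochondrial ribosomal RNA mt-Rnr2, 19.6% against 12.3% to 15.4% elsewhere, and it stood apart for the members. The Methods give RNA integrity only as a mean and SD over all samples, so that of WT replicate 1 is not known here. Trpc1 lay between 4.33 and 4.83 CPM in WT and between 3.04 and 3.79 CPM in Trpc1-/- samples, without overlap. Its log2 fold change of −0.44 (SE 0.13) did not pass edgeR's test (adjusted p = 0.407), and DESeq2 gave an adjusted p of 0.05. By the study's Methods the knockout allele lacks a single exon and its transcript has an early stop codon, whereas the values here cover all exons. The cartilage genes Col2a1 (1453 to 3300 CPM) and Acan (355 to 705 CPM) were detected in every sample, and so were the hemoglobin genes of red cell precursors, which marrow also holds.

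All members were abundant. The RNA of S100a9, the heavier partner of the S100A8/A9 heterodimer calprotectin, ranked 16 among the 16429 tested genes by mean CPM, and S100a8 ranked 21. Ngp, Ltf, Camp, Lcn2, and Mpo ranked 28, 29, 48, 59, and 63, and the proteases Elane, Prtn3, and Ctsg ranked 561, 1022, and 1345. These ranks by CPM take no account of gene length. The members were therefore also compared with each other per kilobase of exon, as means over the 7 samples. On that scale S100a9 (9100 ± 2930 CPM per kb, SD, n = 7) and S100a8 (4190 ± 1440) were the highest, followed by Ngp (1690 ± 443) and Camp (1130 ± 296). Ltf (544 ± 139), Lcn2 (287 ± 83.9), Mpo (211 ± 51.6), and Elane (199 ± 51.1) came next, with Ctsg (104 ± 25.0) and Prtn3 (75.1 ± 19.5) the lowest. Since the members vary together, neighbors in this order were compared within each sample. The order held in 7 of 7 samples for 7 of the 9 neighboring pairs, and the closest of these were Ngp over Camp (1.26-fold to 1.75-fold) and Ctsg over Prtn3 (1.27-fold to 1.58-fold). Lcn2 was below Mpo in WT replicate 1 and Mpo below Elane in Trpc1-/- replicate 3, so these 2 pairs kept no order over all samples. By their means per kilobase, all 6 later members were above all 4 primary members.

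**Figure D1:**
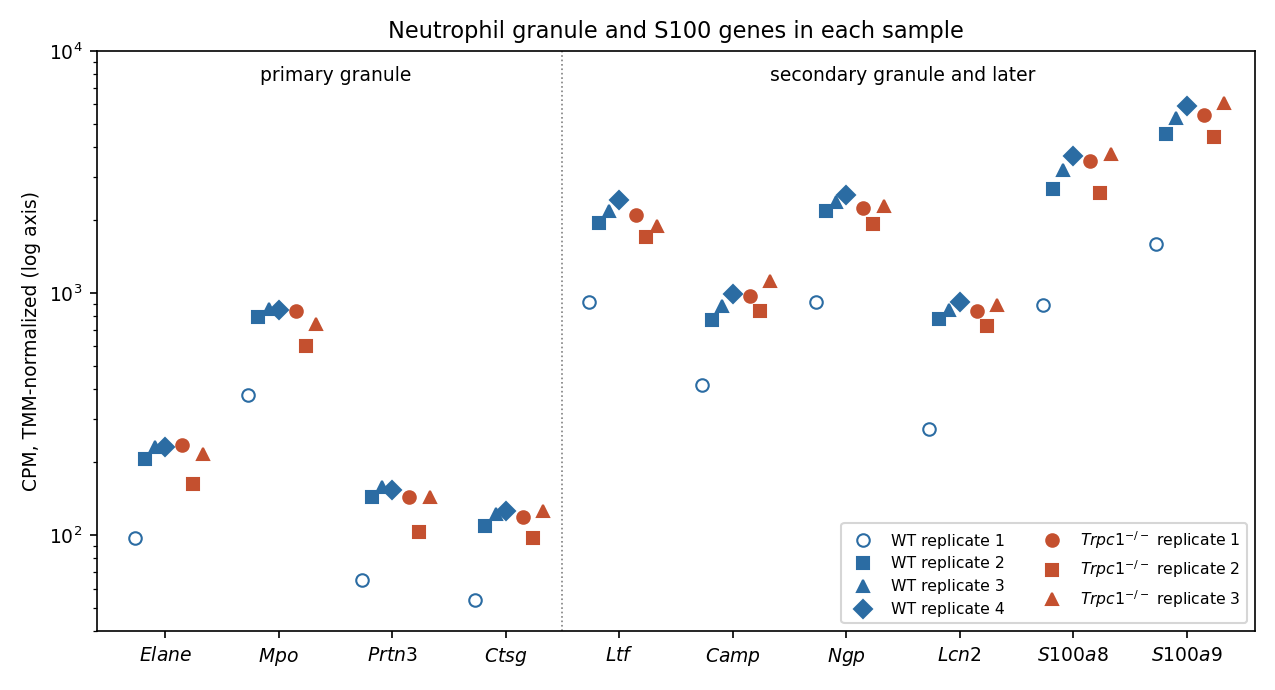
TMM-normalized CPM (y axis, log scale) of each member (x axis) in the 4 WT (blue) and 3 Trpc1-/- (red) samples, 1 point per sample, with the primary members left of the dotted line. WT replicate 1 (open circle) is the lowest point for each of the 10 genes, and the remaining WT and Trpc1-/- samples overlap.

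Primary granule mRNAs did not separate the genotypes, and 1 WT sample was low for each of them. Mpo, which encodes the peroxidase that makes hypochlorous acid, had 378, 791, 857, and 851 CPM in WT replicates 1 to 4 and 840, 601, and 743 CPM in Trpc1-/- replicates 1 to 3. WT replicate 1 was the lowest and Trpc1-/- replicate 2 the next lowest, and the Trpc1-/- samples lay within the WT range. The log2 fold change of Mpo was 0.018 (SE 0.28, edgeR, adjusted p = 0.986). Elane, the gene of neutrophil elastase, had 97.0, 205, 230, and 230 CPM in WT and 235, 162, and 215 CPM in Trpc1-/- samples. The order of the low samples was the same, and the log2 fold change was 0.10 (SE 0.29, edgeR, adjusted p = 0.917).

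Prtn3 encodes proteinase 3, a protease close to elastase and encoded beside it. It had 64.8, 143, 158, and 153 CPM in WT and 144, 103, and 144 CPM in Trpc1-/- samples. The same pair of samples was low, and the group means were 129.7 ± 43.7 CPM (SD, n = 4) and 130.4 ± 23.5 CPM (SD, n = 3), a log2 fold change of 0.0076 (SE 0.30, edgeR, adjusted p = 0.994). Ctsg, the gene of cathepsin G, a chymotrypsin-like granule protease, had 53.8, 109, 122, and 126 CPM in WT and 119, 97.1, and 125 CPM in Trpc1-/- samples. Again the groups overlapped, with a log2 fold change of 0.15 (SE 0.27, edgeR, adjusted p = 0.855).

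Among the secondary granule mRNAs the genotypes overlapped as well. Ltf, the gene of the iron-binding protein lactoferrin, had 920, 1941, 2175, and 2421 CPM in WT and 2092, 1705, and 1886 CPM in Trpc1-/- samples. Trpc1-/- replicates 2 and 3 lay below WT replicates 2 to 4 and above WT replicate 1, and its log2 fold change was 0.02 (SE 0.30, edgeR, adjusted p = 0.981). Camp, which encodes the cathelicidin antimicrobial peptide, had 417, 770, 880, and 988 CPM in WT and 967, 841, and 1124 CPM in Trpc1-/- samples. It was the only member for which Trpc1-/- replicate 2 was not the lowest sample after WT replicate 1. Its log2 fold change of 0.36 (SE 0.28) was the highest of the 10, with an unadjusted p of 0.234 and an adjusted p of 0.646 by edgeR.

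Ngp, the gene of neutrophilic granule protein, had 912, 2174, 2378, and 2534 CPM in WT and 2250, 1919, and 2275 CPM in Trpc1-/- samples, a log2 fold change of 0.10 (SE 0.32, edgeR, adjusted p = 0.919). Lcn2 encodes lipocalin 2, which binds bacterial siderophores and can also be made by other cells, chondrocytes included. It had 275, 781, 849, and 915 CPM in WT and 839, 731, and 889 CPM in Trpc1-/- samples, a log2 fold change of 0.22 (SE 0.36, edgeR, adjusted p = 0.836). For both genes the samples other than WT replicate 1 lay close together, with Trpc1-/- replicate 2 the lowest of them.

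The S100 mRNAs were the most abundant members and varied most. S100a8 had 894, 2685, 3225, and 3670 CPM in WT and 3517, 2589, and 3756 CPM in Trpc1-/- samples. S100a9 had 1596, 4522, 5293, and 5913 CPM in WT and 5420, 4414, and 6109 CPM in Trpc1-/- samples. For both genes the lowest sample was WT replicate 1 and the highest Trpc1-/- replicate 3, and the groups overlapped. The log2 fold changes were 0.33 (SE 0.42, edgeR, adjusted p = 0.783) for S100a8 and 0.30 (SE 0.40, edgeR, adjusted p = 0.792) for S100a9.

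No member was called between the genotypes. At an adjusted p under 0.05, edgeR called 0 of 10 members and 0% of all 16429 genes, DESeq2 called 0 of 10 against 1.79% of all genes, and limma-voom called 0 of 10 against 0.00609%. At an unadjusted p under 0.05, edgeR had 0 of 10 members against 10.0% of all genes, and the groups failed to overlap for 0 of 10 members against 13.6% of all genes. The fitted log2 fold change was above 0 for all 10 members, against 48.1% of all genes, with a median of 0.057 over the primary members, 0.26 over the later members, and −0.0088 over all genes. Fewer members were above 0 without Trpc1-/- replicate 1 (6) or with library totals alone as the scaling (7). The direction depended most on WT replicate 1. Without it the fold changes were above 0 for 3 members (Camp, S100a8, and S100a9) and below 0 for 7, against 49.7% of all genes above 0, and the medians were −0.16 for the primary members, −0.017 for the later members, and −0.0012 for all genes. The standard errors without this sample were 0.10 to 0.18, against 0.27 to 0.42 with it, and again 0 of 10 members were called by edgeR (0.32% of all genes) or DESeq2 (5.49%). At an unadjusted p under 0.05 edgeR then had 0 of 10 members against 16.9% of all genes, and the groups failed to overlap for 0 of 10 against 22.9%.

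The mouse numbers in the labels gave another split of the samples. WT replicates 1 and 2 and all 3 Trpc1-/- samples carry numbers in the 1300s, and WT replicates 3 and 4 carry numbers in the 1700s, a series that holds WT samples alone and so gives no comparison of its own. Within the 1300s, where WT replicate 1 is 1 of 2 WT samples, the log2 fold changes were higher than with all samples, from 0.32 for Mpo and Prtn3 to 0.72 for Camp, 0.80 for S100a9, and 0.88 for S100a8 (SE 0.29 to 0.48). None of the 10 members was called there, with adjusted p of 0.375 to 0.603 by edgeR. With the number series as a covariate the values were nearly the same, and Camp had the lowest adjusted p of any fit (0.72, SE 0.27, edgeR, adjusted p = 0.268).

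**Figure D2:**
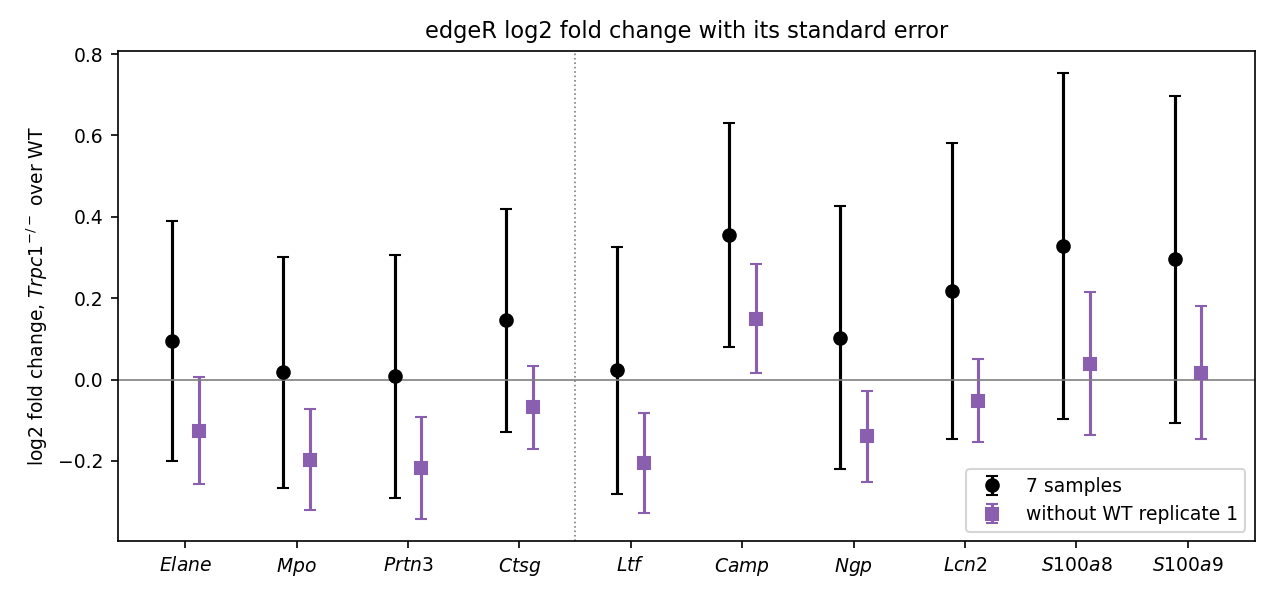
edgeR log2 fold change of Trpc1-/- over WT (y axis) for each member (x axis), with bars of 1 standard error, for all 7 samples (black circles) and without WT replicate 1 (purple squares). All 10 black points lie above 0, and 7 of the 10 purple points lie below 0 with shorter bars.

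The largest variation of the members was within the WT group. WT replicate 1 was the lowest of the 7 samples for 10 of 10 members, as it was for 38.0% of all tested genes. It lay below the mean of the other WT samples by 2.21-fold to 2.34-fold for the primary members, 2.11-fold for Camp, 2.37-fold for Ltf, 2.59-fold for Ngp, 3.08-fold for Lcn2, 3.29-fold for S100a9, and 3.57-fold for S100a8. On the log2 scale this was between −1.07 (Camp) and −1.82 (S100a8), and between −1.14 and −1.22 for the primary members, whereas the median over all genes was −0.004 and 3.30% of all genes lay lower by more than 1. The later members thus spread more widely in this sample than the primary members. The 10 members took 0.51% of the counts of WT replicate 1 and 1.29% to 1.86% of the counts of the other samples. Of the 6 other samples, Trpc1-/- replicate 2 was the lowest for 9 of 10 members, against 17.7% of all genes. WT replicate 1 also differed by gene length. Genes with under 1500 bases of exon had a median log2 distance from the other WT samples of −0.39 in it and those over 4000 bases of 0.12, and the part of transcript length in the members' low values was not tested.

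**Figure D3:**
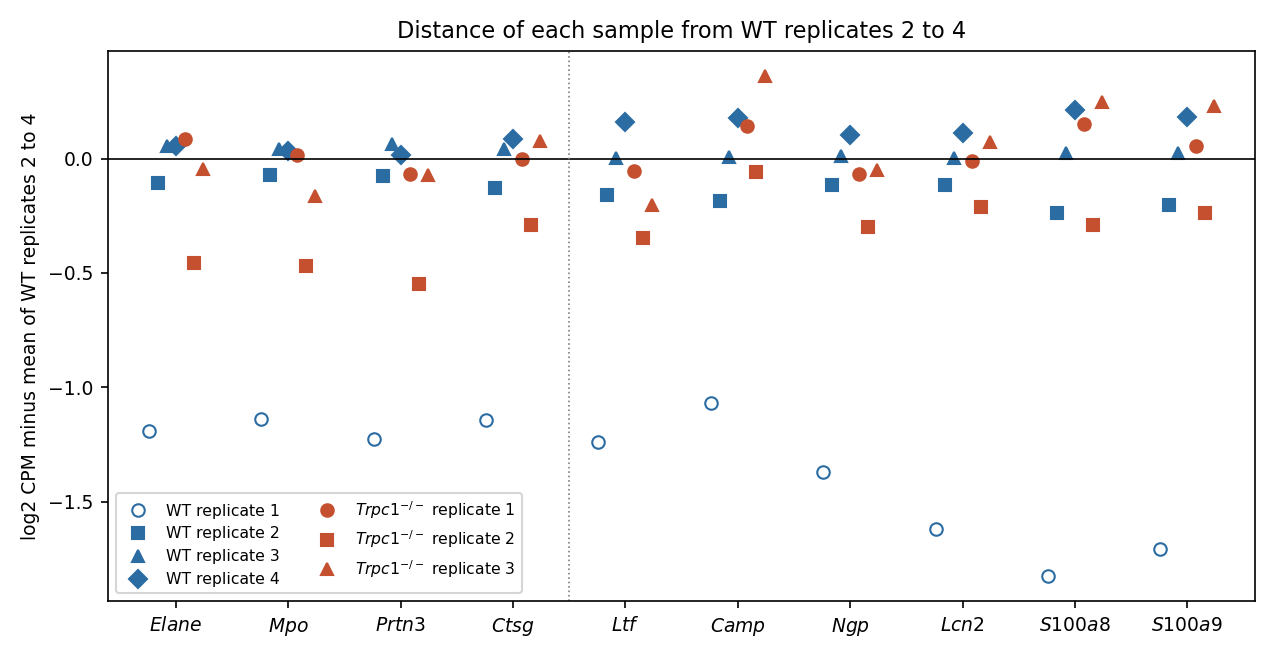
Log2 CPM of each member (x axis) in each sample minus the mean of WT replicates 2 to 4 (y axis), with 1 point per sample and the primary members left of the dotted line. WT replicate 1 lies between −1.07 and −1.82, lowest for S100a8, and all other points lie within 1 unit of 0.

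The proportion of primary to later mRNA overlapped between the genotypes. The mean log2 CPM of the 4 primary members was 6.73, 7.81, 7.96, and 7.95 in WT and 7.91, 7.47, and 7.85 in Trpc1-/- samples, and that of the 6 later members was 9.49, 10.79, 10.97, and 11.12 in WT and 11.00, 10.72, and 11.07 in Trpc1-/- samples. The primary minus later difference was −2.76, −2.98, −3.02, and −3.17 in WT, a mean of −2.98 ± 0.17 (SD, n = 4), and −3.08, −3.25, and −3.21 in Trpc1-/- samples, a mean of −3.18 ± 0.089 (SD, n = 3). The group means thus differed by −0.20 on the log2 scale, and by −0.13 without WT replicate 1, −0.32 among the samples numbered in the 1300s, and −0.044 with the median of the members of a stage in place of their mean, with WT replicate 4 inside the Trpc1-/- range. WT replicate 1, with the lowest levels, had the highest proportion of primary to later mRNA, and Trpc1-/- replicate 2 had the lowest.

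**Figure D4:**
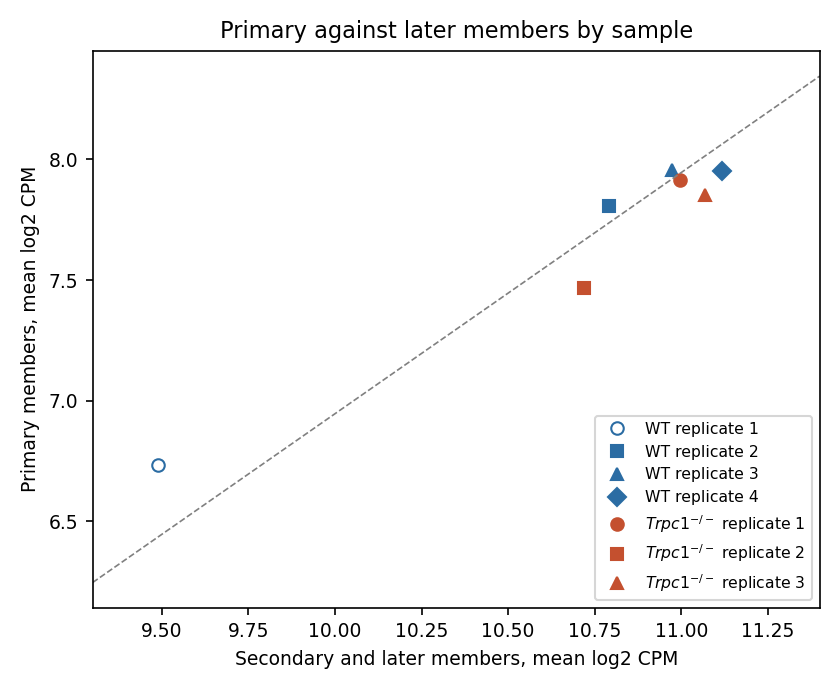
Mean log2 CPM of the 4 primary members (y axis) against that of the 6 later members (x axis), 1 point per sample. The dashed line has a slope of 1 and marks the mean primary minus later difference of WT replicates 2 to 4. WT replicate 1 lies above it at 9.49 and 6.73, and WT replicate 4 and the 3 Trpc1-/- samples lie below it.

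Ratios between mRNAs of the same stage ranged less than their levels. S100a9 to S100a8, the partners of calprotectin, kept a CPM ratio of 1.54 to 1.78 over the 7 samples, and the neighbors Elane and Prtn3 kept one of 1.43 to 1.63. Mpo to Elane ranged from 3.46 to 3.89 and Elane to Ctsg from 1.66 to 1.98, so the primary mRNAs stayed in proportion while their levels changed. Mpo to Ltf, across the stages, ranged from 0.351 to 0.411. Mpo to S100a8 ranged from 0.198 to 0.423, with WT replicate 1 at the top. Ngp to Camp ranged from 2.02 to 2.82 and Mpo to Camp from 0.661 to 1.03. Of the 9 ratios computed, Ltf to Camp was the only one whose groups did not overlap, with 2.21, 2.52, 2.47, and 2.45 in WT and 2.16, 2.03, and 1.68 in Trpc1-/- samples. This ratio was picked out after its values were seen and is given without a test.

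The members varied together across samples. Over the 7 samples Pearson's r of log2 CPM was 0.968 to 0.994 for the 6 pairs of primary members, 0.900 to 0.999 for the 15 pairs of later members, and 0.872 to 0.993 for the 24 pairs across the stages. Much of this rested on WT replicate 1. Without it, over 6 samples, r was 0.803 to 0.964 for the primary pairs, 0.244 to 0.986 for the later pairs, and 0.186 to 0.975 across the stages, lowest for Ltf with Camp and for Mpo with Camp. The points share their libraries, and the values are given as a description. Camp was thus in the lowest pair of the later members and in the lowest pair across the stages among the 6 remaining samples.

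The genes whose profile was most like the mean of the primary members, by Pearson's r of log2 CPM over the 7 samples, were Prss57 (r = 0.9992, Spearman's rho = 0.964), another serine protease of granulocytes, Ppp4c, Ltb4r1, a leukotriene B4 receptor, Selplg, the P-selectin ligand, and Gnptg. For Prss57, r was 0.949 without the 2 samples farthest from the median, WT replicate 1 and Trpc1-/- replicate 2. For the later members they were Serpinb1a (r = 0.9997, rho = 1), an inhibitor of neutrophil serine proteases, Ostf1, Mmp8, the neutrophil collagenase, Msrb1, and Anxa1. For Serpinb1a, r was 0.994 without the same 2 samples. Prss57 was among the other primary granule genes, Serpinb1a among the inhibitors, and Mmp8 among the other secondary granule genes described next.

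With all samples, no other listed primary or secondary granule gene was called between the genotypes by edgeR or DESeq2. Of the 6 other primary granule genes tested, 5 had a fitted fold change above 0 and 1 below (median 0.069), and of the 8 other secondary granule genes 6 were above and 2 below (median 0.11). Without WT replicate 1 the counts were 1 above and 5 below, and 2 above and 6 below. In WT replicate 1 the lowest value of the 7 samples was found for 6 of 6 and 8 of 8 genes. Lyz2, the gene of lysozyme, had 1289, 2494, 2779, and 3050 CPM in WT and 2457, 2310, and 2782 CPM in Trpc1-/- samples, and Mmp8 had 171, 403, 436, and 475 CPM and 442, 392, and 473 CPM. Both show the low WT sample and overlapping groups of the members. The 4 tertiary (gelatinase) granule genes had 1 above and 3 below 0 (median −0.084), and 0 were called by edgeR or DESeq2 with all samples. Mmp9, the gelatinase, had 329, 507, 537, and 721 CPM in WT and 473, 514, and 446 CPM in Trpc1-/- samples, so WT replicate 1 was lowest and WT replicate 4 highest.

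Genes of mature neutrophils and of their oxidase overlapped between the genotypes, with 1 exception. Of 14 mature neutrophil genes 12 were above and 2 below 0 with all samples (median 0.13), and 4 above and 10 below without WT replicate 1, in which 12 of the 14 were lowest. Retnlg had 121, 310, 347, and 382 CPM in WT and 353, 270, and 325 CPM in Trpc1-/- samples. Stfa2l1 was the only gene of this list of 14 whose groups did not overlap, against 13.6% of all genes. It had 2.51, 5.52, 7.46, and 8.16 CPM in WT and 9.03, 8.82, and 11.5 CPM in Trpc1-/- samples. It did not pass edgeR's test (log2 fold change 0.72, SE 0.35, adjusted p = 0.525). Of the 6 genes of the NADPH oxidase, which makes superoxide, 5 were above and 1 below 0 (median 0.057), and 0 above and 6 below without WT replicate 1. Cybb, its catalytic subunit, had 232, 506, 543, and 618 CPM in WT and 530, 456, and 519 CPM in Trpc1-/- samples. In both lists 0 genes were called by edgeR or DESeq2 with all samples.

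Genes that act before and after the granules were examined as well. Of 8 granulocyte transcription factors 5 were above and 3 below 0 (median 0.037), and 2 above and 6 below without WT replicate 1. Spi1, the gene of PU.1, had 34.5, 75.5, 82.7, and 81.9 CPM in WT and 75.4, 64.4, and 78.3 CPM in Trpc1-/- samples, low in the same samples as the members. Myb, a factor of progenitors, had 123, 140, 149, and 137 CPM and 155, 136, and 140 CPM, lowest in those samples too but by less. WT replicate 1 lay below the mean of the other WT samples by 1.16-fold for Myb and 2.32-fold for Spi1. The 4 inhibitors of neutrophil proteases had 3 above and 1 below 0 (median 0.099), and 1 above and 3 below without WT replicate 1. The 4 receptors of granule and S100 proteins had 1 above and 3 below both with it (median −0.40) and without it (median −0.11). Lrp1, an endocytic receptor that takes up lactoferrin, was higher in WT replicate 1 (1021 CPM) than in the other WT (597 to 680 CPM) and the Trpc1-/- samples (540 to 659 CPM). Tlr4, a receptor of S100A8/A9, had 45.7 to 56.3 CPM in WT and 54.8 to 57.8 CPM in Trpc1-/- samples. No gene of these 3 lists was called by edgeR or DESeq2 with all samples.

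The signals that make and call neutrophils differed widely in level. Of 7 genes of the G-CSF and chemokine axis, 3 passed the filter and 0 were called by edgeR or DESeq2 with all samples. Il17a had 0 counts in all samples, which allows a level of up to 0.0244 to 0.0632 CPM by library (3 counts, counting error only). Csf3, the gene of G-CSF, had 3 counts in Trpc1-/- replicate 1 and 0 elsewhere. Cxcl1 and Cxcl2 stayed under 1 CPM in every sample. Cxcl12, the chemokine that retains neutrophils in marrow, had 435, 432, 430, and 480 CPM in WT and 494, 524, and 518 CPM in Trpc1-/- samples. Its groups did not overlap, which also held for 13.6% of all genes. Its log2 fold change of 0.20 (SE 0.089) did not pass edgeR's test (adjusted p = 0.499).

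Markers of other cells moved in these samples too. The summed level of 8 eosinophil genes was 86.6 CPM in WT replicate 1 and 1099 to 1362 CPM in the other WT samples, and 1306, 446, and 779 CPM in Trpc1-/- replicates 1 to 3, with 8 of 8 genes lowest in WT replicate 1. Eosinophil peroxidase, Epx, had 9.65, 168, 195, and 149 CPM in WT and 186, 67.0, and 111 CPM in Trpc1-/- samples. So Trpc1-/- replicate 2, the lower of the Trpc1-/- samples for the members, was also the lowest of them for eosinophil genes. The sum of 9 monocyte and macrophage genes was 618 CPM in WT replicate 1 and 975 to 1132 CPM elsewhere, with 9 of 9 genes lowest in WT replicate 1. The sum of 5 skeletal muscle genes ran the other way in WT, 973 CPM in WT replicate 1 and 54.0 to 186 CPM in the others, with 328 to 838 CPM in Trpc1-/- samples. The 9 tested erythroid genes summed to 12841 to 23828 CPM in WT and 27295 to 37209 CPM in Trpc1-/- samples. All 9 had a fold change above 0, and edgeR called 0. No gene of the other marker lists was called by edgeR or DESeq2 with all samples. Chondrocyte genes summed to 4840 to 5412 CPM in WT and 2798 to 5145 CPM in Trpc1-/- samples, and osteoblast genes to 8356 to 14208 CPM and 6710 to 11075 CPM. The sums of B lineage, T cell, mast cell and basophil, and stem and progenitor genes were 247 to 290, 9.65 to 19.7, 29.2 to 74.2, and 155 to 184 CPM in WT and 276 to 343, 20.2 to 20.9, 60.3 to 104, and 157 to 165 CPM in Trpc1-/- samples. The part of the makeup of the samples in the members' values was not tested.

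**Figure D5:**
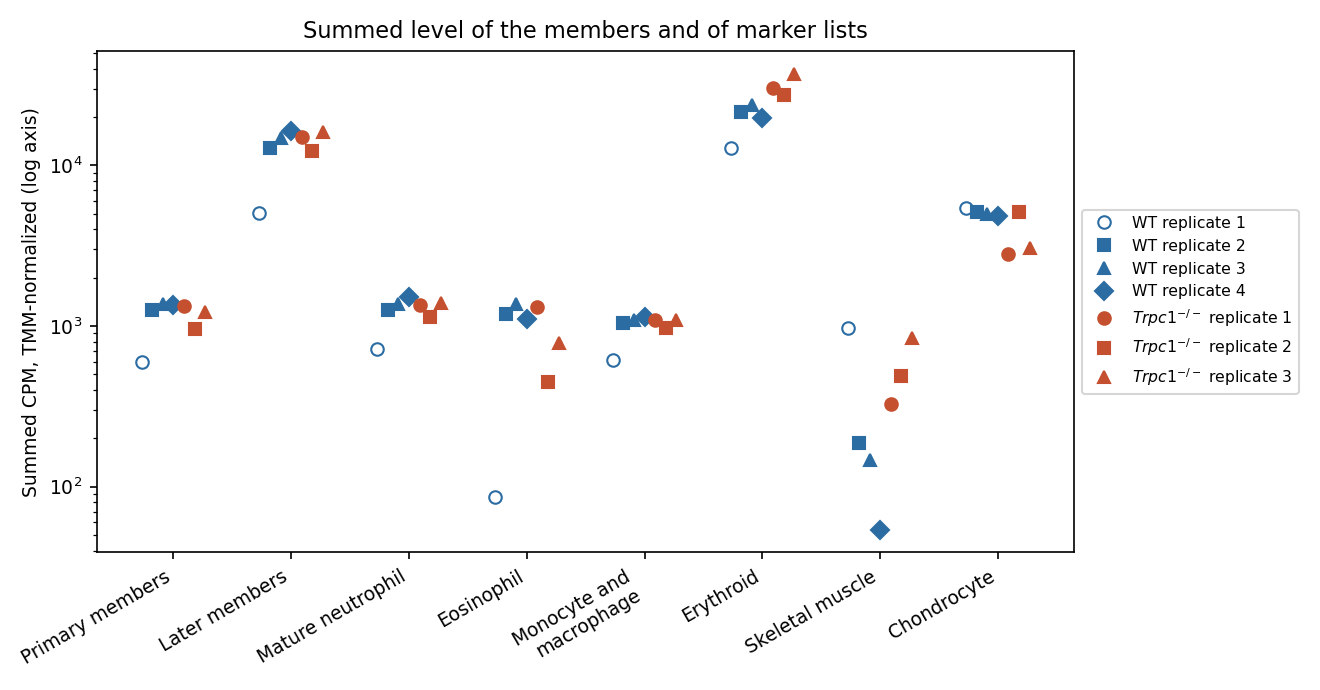
Summed TMM-normalized CPM (y axis, log scale) of the primary members, the later members, and 6 lists of cell type genes (x axis), 1 point per sample. WT replicate 1 (open circle) is the lowest sample for the members and for the mature neutrophil, eosinophil, monocyte and macrophage, and erythroid lists, and the highest for skeletal muscle and chondrocyte genes.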

How the data were processed

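RNA was taken from 7 pooled samples (4 WT and 3 Trpc1-/- by their labels), ribosomal RNA was depleted, and stranded libraries were sequenced from both ends. Per the labels and the Methods, the authors trimmed reads with Cutadapt 2.5, aligned them to GRCm38 with HISAT2 2.1.0, and ran StringTie 2.0.3. The deposited values are estimated counts per gene made from its coverage, whole numbers that were not normalized, so rounding changed none of them. How reads shared by similar genes were split is fixed by that step.

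Genes above 1 CPM in at least 2 samples were kept and TMM-normalized, and edgeR 4.0.16 (R 4.3.3) fitted its quasi-likelihood model to genotype alone, with Benjamini-Hochberg adjustment over 16429 genes at 0.05. Log2 CPM used a prior count of 1. DESeq2 1.42.0, limma-voom (limma 3.58.1), other normalizations and filters, the replicate block, the mouse number series (1300s and 1700s) in the labels, and each sample left out were alternatives, and the fits were tested on simulated data. DESeq2 without WT replicate 1 and with the replicate block was added after the data were seen. Each sample pools different mice, and p-values measure the spread between these pools.

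The members and lists were chosen with earlier results of these data known. Of each pathway list the 3 most abundant genes and the 2 with the smallest unadjusted p could be named, of each marker list the 2 most abundant, and the 5 genes most like either stage. The chemokine axis genes under the filter were chosen for naming after their values were seen. Some genes of the lists are not reported here. Sequences are from RefSeq. Counting limits of 3 counts cover counting error only. The common dispersion was 0.0424.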

Additional observations from a re-analysis of the deposited data

Results flagged for a closer look

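In the 4 WT samples, WT replicate 1 was far below the others by Dixon's ratio, the gap to the nearest sample divided by the range, for Mpo (0.861), Prtn3 (0.841), and the mean log2 CPM of the 4 primary members (0.879). Of 13 quantities tested, these 3 passed Dixon's 95% critical value for 4 samples. The members move together, so these are not separate events, and chance alone passes about 1 in 20 groups. For the other 8 members WT replicate 1 was also the lowest WT sample, but its ratio stayed under the critical value.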

How the results depend on the processing

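No member was called in any of the 180 fits of a member under an alternative, where the lowest adjusted p was 0.268 (edgeR, DESeq2, or limma-voom). Of these, 158 kept the direction and 22 reversed it. Over all genes DESeq2 called 294, limma-voom 1, DESeq2 without WT replicate 1 892, DESeq2 with the replicate block 54, and edgeR without each sample 0 to 52. The number of members above 0 was 3 to 10 when each sample was left out in turn, 3 without WT replicate 1 and 6 without Trpc1-/- replicate 1, and 3 with DESeq2 without WT replicate 1. In the pathway and marker lists DESeq2 called 3 genes, 15 without WT replicate 1, and 1 with the replicate block. With library totals alone as the scaling, which moved the median of all genes to −0.067, Mpo (−0.059), Prtn3 (−0.074), and Ltf (−0.055) were below 0. Leaving out each sample gave log2 fold changes of −0.13 to 0.23 for Elane, −0.20 to 0.13 for Mpo, −0.22 to 0.14 for Prtn3, −0.069 to 0.26 for Ctsg, −0.20 to 0.17 for Ltf, −0.14 to 0.24 for Ngp, −0.052 to 0.37 for Lcn2, 0.15 to 0.50 for Camp, 0.039 to 0.54 for S100a8, and 0.017 to 0.48 for S100a9. Within the mouse numbers of the 1300s all 10 were above 0, from 0.32 to 0.88. DESeq2 without WT replicate 1 gave −0.12 for Elane, −0.19 for Mpo, −0.21 for Prtn3, −0.064 for Ctsg, −0.20 for Ltf, −0.13 for Ngp, and −0.047 for Lcn2. The labels do not say whether the replicate numbers pair the samples. Same-numbered samples had correlations of −0.348, −0.205, and −0.0439 against a mean of 0.0655 for other pairs, and 3 such values are too few to settle it. With the replicate block edgeR called 0 genes. The cause of these changes was not tested, beyond the samples left out. The primary minus later difference stayed between −0.32 (1300s alone) and −0.044 (median of the members). At these depths precision is limited by the spread between 3 and 4 pools.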
